A study of Lactuca sativa with 9 samples.

Results

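The 2-exon circular RNAs (circRNAs) of lettuce genes that gave a single circRNA are described here. They were taken from the circRNA table as the exonic circRNAs with an exon number of 2 and a parental gene listed in 1 row. This rule, which uses no read number, gave 327 of the 1650 circRNAs (19.8%) from 327 of the 1325 parental genes. Of the 507 exonic circRNAs with 2 exons, 180 were left out because their gene had several circRNAs. The libraries were made from leaves of 24-d-old plants of the cultivar The Hong Kong Glass lettuce, with leaves mixed for each of the 3 biological replicates of a group. Las_WL was grown at 60, Las_ML at 175 and Las_SL at 340 µmol per m2 per s (± 2), as the sample labels state, and light was the difference between the groups. The study's text gives the intensities of Las_SL and Las_WL both ways round, and the labels were followed. It describes rRNA depletion and RNase R digestion of linear RNA, whereas the protocol deposited with the samples describes poly(A) selection.

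A circRNA forms when the spliceosome joins the end of an exon back to the start of the same or an earlier exon, a reaction called back-splicing. A read across this junction is the evidence for the circle, so a back-spliced read counts the junction and not the whole molecule. A 2-exon circRNA joins the end of its second exon to the start of its first, and the introns on both sides, the flanking introns, are the sequences that have to be brought together. In animals, and in some plant studies, long flanking introns and inverted repeats within them are associated with circle formation. In leaves, circRNAs are mostly far less abundant than the linear mRNA of their parental gene.

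The libraries held 398 to 704 back-spliced reads in Las_WL, 747 to 1036 in Las_ML and 704 to 990 in Las_SL, which sets the precision of every value below. Genes annotated as light-harvesting proteins, which mark green leaf tissue, were high in all 9 libraries, with summed FPKM of 12636 to 31421 over 37 genes. Las_WL replicate 1 stood apart: it had the lowest of these sums and a summed FPKM of 15229 over 66 histone genes, against 688 to 4118 in the other 8 libraries. The main results on Las_WL are therefore also given without it. Whether the difference of this library moved with the values of the 2-exon circRNAs was not tested. In bulk leaf RNA, fewer cells of a type and less RNA per cell cannot be told apart.

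The 2-exon circRNAs were short and spread over the genome. Their genomic span, from the first to the last circularized base and including the intron between the exons, had a median of 418 bp (207 to 5254). The most populated class was 301 to 400 bp with 107 circRNAs (32.7%), 46.5% spanned at most 400 bp, and 27 exceeded 1000 bp (8.26%). By comparison, the median span was 237 bp for the 278 single-exon circRNAs and 874.5 bp for the 364 circRNAs of 3 or more exons from genes with a single circRNA. It was 450.5 bp for the 180 circRNAs of 2 exons from genes with several circRNAs, so the number of circRNAs per gene went with a smaller difference in span than the exon number. The circles lay on 263 scaffolds of the Lsat_Salinas_v7 assembly, with at most 4 on a scaffold, 160 on the plus and 167 on the minus strand. None overlapped another circRNA of the table. The rule leaves out genes with a second circRNA, so only an overlap with circRNAs of other genes was possible.

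The shortest and longest circles came from unrelated genes. circRNA296 spanned 207 bp (NW_019674536.1, 504840 to 505046, minus strand) in LOC111906190, which encodes an armadillo-like helical protein. circRNA397 spanned 212 bp (NW_019678776.1, 674241 to 674452, plus strand) in LOC111878100, a membrane-bound O-acyltransferase gene. The longest, circRNA309, spanned 5254 bp (NW_019681416.1, 1202981 to 1208234, minus strand) in the cytochrome P450 gene LOC111889315, a member of a large family of oxidative enzymes. circRNA1084 spanned 3387 bp (NW_019676959.1, 217626 to 221012, plus strand) in LOC111915505, an RGC2 resistance gene. These 4 circles had 1 to 3 reads each, all in a single library.

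**Figure D1:**
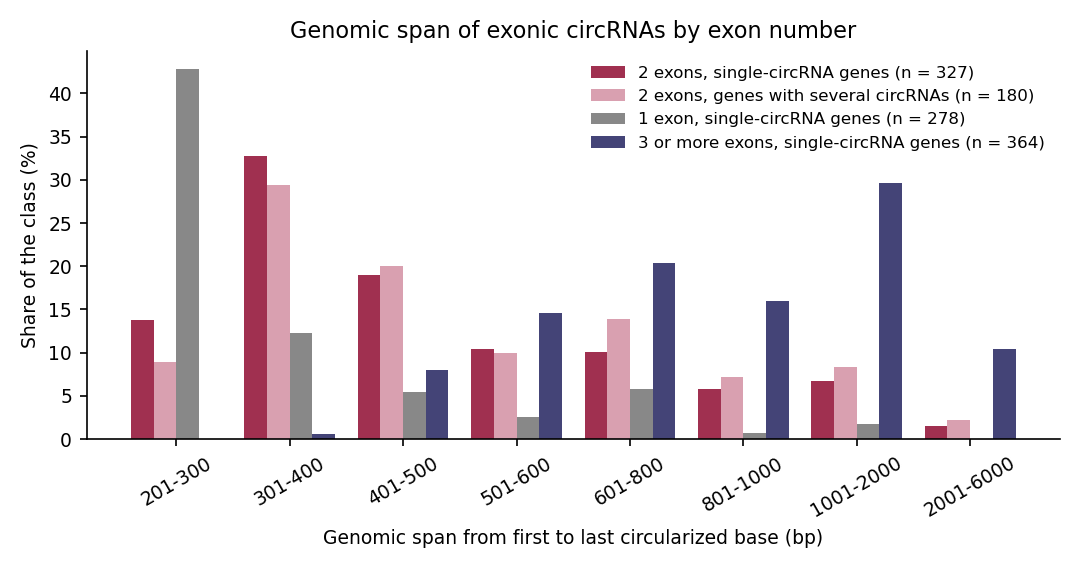
Share of circRNAs (%, vertical axis) in classes of genomic span (bp, horizontal axis) for 4 sets of exonic circRNAs; spans below 201 bp or above 6000 bp, which no 2-exon circRNA of a single-circRNA gene had, are not drawn. The 327 circRNAs described here peak at 301 to 400 bp (32.7%), between the single-exon circRNAs and those of 3 or more exons.

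The flanking introns were mostly short, and their lengths went together. The upstream intron had a median of 230 bp (63 to 7115, n = 326, since circRNA540 has none listed) and the downstream intron a median of 169 bp (62 to 13013, n = 327). Across circRNAs the lengths on both sides had a Spearman correlation of 0.56 (n = 326), given as a description, since circRNAs are not independent replicates. In 74 circRNAs (22.7%) both introns were at most 100 bp, against 38.1% of single-exon circRNAs and 20.1% of those with 3 or more exons. In 82 (25.2%) both exceeded 300 bp, against 11.5% and 20.1% in the same classes. For circRNAs of 2 exons from genes with several circRNAs, both introns were at most 100 bp in 26.7% and above 300 bp in 20.0%. The longest flanking introns were 13013 bp downstream of circRNA344 in LOC111909686, a putative callose synthase gene, and 8542 bp downstream of circRNA1249 in LOC111911006, which has no named function. Both circles had 1 read.

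The circles with the most reads had longer flanking introns. Both introns exceeded 300 bp in 9 of the 12 circRNAs with 10 or more reads, in 11 of the 27 with 4 to 9 reads, in 18 of the 77 with 2 or 3 reads and in 44 of the 211 with 1 read. The median summed intron length was 1198 bp, 660 bp, 379 bp and 471 bp in these classes, so the order did not hold below 4 reads. Over all circRNAs the correlation between summed intron length and reads was weak (Spearman 0.13, n = 326). The longest introns among the 12 belonged to circRNA101 (2004 bp upstream, 5559 bp downstream), circRNA258 (6283 and 842 bp) and circRNA26 (2763 and 644 bp). circRNA262 (154 and 188 bp), circRNA246 (226 and 280 bp) and circRNA21 (370 and 176 bp) ranked among the 5 most read circles without a long intron pair.

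**Figure D2:**
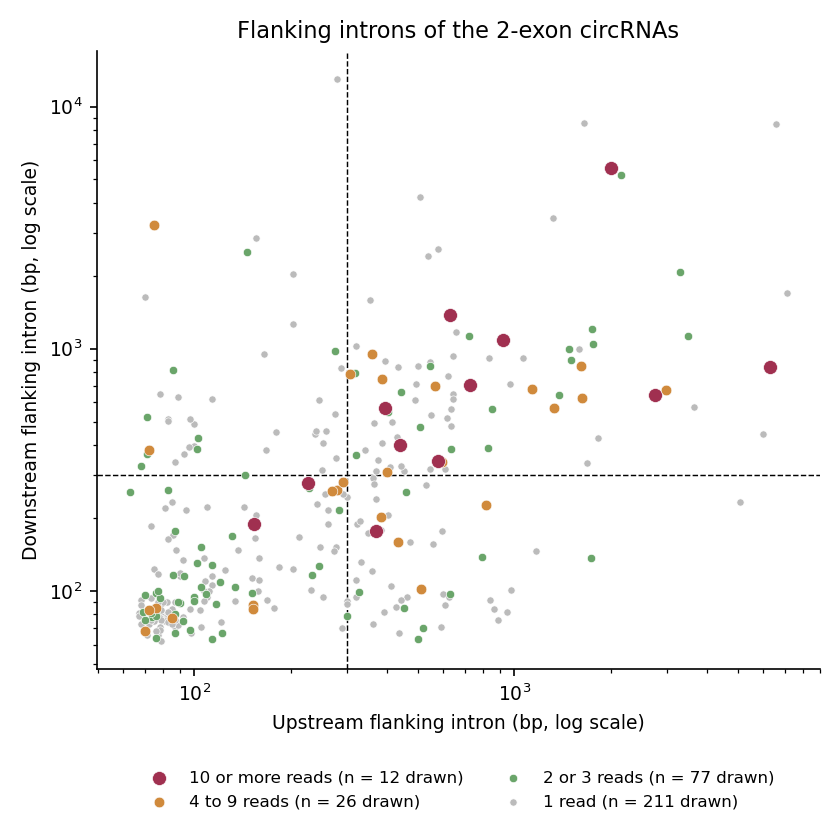
Length of the downstream against the upstream flanking intron (bp, both axes logarithmic) of 326 circRNAs with 2 exons, coloured by their reads over all libraries; dashed lines mark 300 bp. Of the 12 circRNAs with 10 or more reads, 9 lie above 300 bp on both sides, and a cluster of circRNAs with few reads lies near 100 bp.

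Most of the circles were seen a single time. Of the 327, 211 had 1 read (64.5%), 59 had 2, 18 had 3, 27 had 4 to 9 and 12 had 10 or more. In all they held 894 of 6836 back-spliced reads (13.1%), and the 12 most read circles held 358 of these 894. Reads came from 2 or more libraries for 65 (19.9%), close to 21.3% of the other circRNAs of the table, and 3 had a read in all 9 libraries. Among the 180 circRNAs of 2 exons from genes with several circRNAs the share was higher, 28.3%. Per library, a detected 2-exon circle had 1.81 ± 0.10 reads (SD, n = 9). Single-exon circRNAs of single-circRNA genes had 5.55 ± 0.81, higher in 9 of 9 libraries (exact sign permutation test, two-sided, p = 0.0039, the smallest that 9 libraries allow). This difference rested on 1 abundant single-exon circRNA: without the most read circRNA of each class the values were 1.73 ± 0.10 and 1.54 ± 0.20, now higher for the 2-exon circles in 8 of 9 libraries (exact p = 0.012). Circles of 3 or more exons had 1.91 ± 0.20 reads, which did not differ beyond the spread between libraries (2-exon circles lower by 0.09 ± 0.25 on average, exact p = 0.31). These tests compare libraries that read the same set of circRNAs, so they do not measure the spread between circRNAs.

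The question the light groups address is whether these circles change with light intensity. The 2-exon circles had 66, 86 and 60 reads in the 3 Las_WL libraries, 151, 97 and 110 in Las_ML and 98, 116 and 110 in Las_SL. Per 1000000 uniquely mapped reads this was 0.957, 1.31 and 0.977 in Las_WL, 1.74, 1.303 and 1.62 in Las_ML, and 1.40, 1.70 and 1.75 in Las_SL. All Las_SL libraries lay above all Las_WL libraries, and Las_ML overlapped with both groups. The mean was 1.62 ± 0.19 in Las_SL and 1.08 ± 0.20 in Las_WL (SD, n = 3 each), a ratio of 1.496 (two-sided exact permutation test of 3 against 3 libraries, which cannot go below p = 0.1, gave p = 0.1, Benjamini-Hochberg adjusted p = 0.3 over 9 tests). Without Las_WL replicate 1 the ratio was 1.41 (exact p = 0.2). For Las_WL against Las_ML, whose mean was 1.55 ± 0.22, the ratio was 0.70 (exact p = 0.2, adjusted p = 0.45), and 0.74 without Las_WL replicate 1 (exact p = 0.3). For Las_SL against Las_ML it was 1.04 (exact p = 0.6, adjusted p = 1). Reads of all other circRNAs per 1000000 moved alike, with 10.9 ± 1.7 in Las_SL and 7.45 ± 2.37 in Las_WL (ratio 1.47, exact p = 0.1).

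As a share of all back-spliced reads, the 2-exon circles therefore stayed close between groups with all libraries. The share was 16.6%, 12.2% and 10.8% in Las_WL, 14.6%, 11.2% and 14.7% in Las_ML, and 11.7%, 11.7% and 15.6% in Las_SL. The lowest library, Las_WL replicate 3, had a 95% Wilson interval of 8.45 to 13.6% and the highest, Las_WL replicate 1, of 13.3 to 20.6%; such intervals cover counting error only. The 3 ratios of group means were 0.96 for Las_SL against Las_ML, 0.98 for Las_WL against Las_ML and 0.99 for Las_SL against Las_WL (exact p = 1, 0.9 and 1; adjusted p = 1 in each case). Without Las_WL replicate 1, the ratio was 0.85 for Las_WL against Las_ML (exact p = 0.3). It was 1.13 for Las_SL against Las_WL (exact p = 0.6), so the near-equal means with Las_WL rested in part on this library.

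The number of 2-exon circles with a read was lowest in weak light, as was the number over all circRNAs. It was 34, 50 and 33 in Las_WL, 83, 56 and 60 in Las_ML, and 60, 60 and 59 in Las_SL. The 3 Las_WL values were all below the 6 others. Over all circRNAs the number was 185, 257 and 198 in Las_WL, 389, 320 and 274 in Las_ML, and 308, 321 and 282 in Las_SL, which separate Las_WL in the same way, so the pattern was not particular to the 2-exon circles. The ratio was 0.59 for Las_WL against Las_ML and 1.53 for Las_SL against Las_WL (exact p = 0.1 and adjusted p = 0.3 for both), and 0.90 for Las_SL against Las_ML (exact p = 0.9, adjusted p = 1). Without Las_WL replicate 1, they were 0.63 (exact p = 0.2) and 1.44 (exact p = 0.1) for the comparisons with Las_WL. The libraries also differed in reads: at an equal 60 reads of 2-exon circles, an alternative chosen after the data were seen, 38.7 to 42.9 circles would be expected in the Las_SL libraries and 32.1 to 39.6 in the Las_WL libraries (ratio 1.15, exact p = 0.3), and 39.6 to 42.3 in the Las_ML libraries (ratio of Las_WL to Las_ML 0.86, exact p = 0.1).

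**Figure D3:**
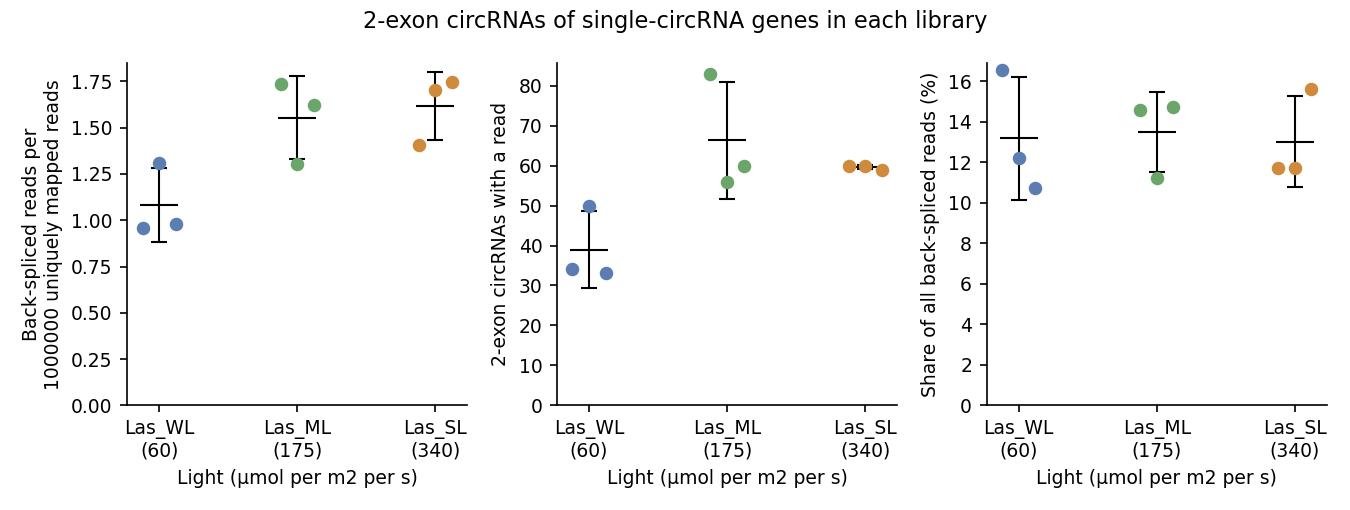
Reads of the 327 circRNAs with 2 exons per 1000000 uniquely mapped reads (left), number of them with a read (middle) and their share of all back-spliced reads in % (right) in each library of Las_WL, Las_ML and Las_SL (60, 175 and 340 µmol per m2 per s); points are libraries, bars the mean ± SD (n = 3). Las_SL lies above Las_WL on the left and in the middle, while the shares overlap.

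By light group, 99 of the 327 circles had a read in Las_WL, 167 in Las_ML and 143 in Las_SL. All reads fell in a single group for 268 of them (82.0%, against 82.2% of the other circRNAs), 36 were found in 2 groups and 23 in all 3. Of the 268, 211 had 1 read and so could not be found in a second group. Among circles read in 2 or more libraries, 1 was found in Las_WL alone, 0 in Las_ML alone and 5 in Las_SL alone, against 10, 21 and 15 of the 1323 other circRNAs. The Las_WL circle was circRNA1335, with 0, 2 and 3 reads in the Las_WL libraries and 0 in the other 6, from LOC111892996, which encodes a protein similar to an rRNA small subunit methyltransferase. circRNA31, with 2, 2 and 0 reads in Las_SL and 0 elsewhere, came from the RGC2 resistance gene LOC111914799. circRNA330 had 0, 1 and 2 reads in Las_SL, from a gene for a subunit of general transcription factor 3C, which serves RNA polymerase III. circRNA18 (a gene of unknown function), circRNA281 (a nucleotidyltransferase gene) and circRNA44 (a mitogen-activated protein kinase gene) had 2 reads each in Las_SL. A total of 0 in a group allows up to 3 reads over the group, so for these 6 circles the presence in other groups below that limit was not detectable at this depth.

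The quasi-likelihood test of edgeR was run over the 347 circRNAs that were read in 2 or more libraries, 65 of which are 2-exon circles of single-circRNA genes. The calls below used an unadjusted p of up to 0.05 together with a log2 fold change of at least 1 in size. Among all circRNAs tested, 2.31% were called in Las_SL against Las_ML, 3.17% in Las_WL against Las_ML and 3.75% in Las_SL against Las_WL. Of the 65 circles 1, 2 and 2 were called in these comparisons, shares of 1.54%, 3.08% and 3.08% and so near the share over all circRNAs. After Benjamini-Hochberg adjustment over the 347, 0 of the 65 passed 0.05 in any comparison, while 0.288%, 0.288% and 0% of all circRNAs did. The calls involved 3 circles: circRNA101, circRNA160 and circRNA262. Without Las_WL replicate 1, circRNA1335 was called higher in Las_WL than in Las_ML (log2 fold change 4.53, edgeR adjusted p = 0.71). By the same test it was called lower in Las_SL than in Las_WL (-4.53, adjusted p = 0.64). It was named above for reads in Las_WL alone, so these calls are no separate support.

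circRNA101 had the most reads, 58. It spanned 756 bp on NW_019677029.1 (1263630 to 1264385, minus strand) in LOC111915859, a gene annotated with the DNA-binding domain of WRKY transcription factors, a plant family known for roles in stress and defence responses. It had 3, 0 and 2 reads in Las_WL, 12, 4 and 7 in Las_ML and 7, 12 and 11 in Las_SL. All Las_WL libraries lay below all libraries of the other groups. Reads per uniquely mapped read were 5.85-fold those of Las_WL in Las_SL (95% counting interval 2.25 to 19.3), with a log2 fold change of 2.47 ± 0.68 (SE; edgeR adjusted p = 0.11). The adjusted p ranged from 0.026 to 1 over 15 alternatives and was below 0.05 in 5 of them; without Las_WL replicate 1 the log2 fold change was 3.11 and the adjusted p 0.044. In Las_WL against Las_ML the log2 fold change was -1.89 ± 0.72 (edgeR adjusted p = 0.62), and this call was lost without Las_WL replicate 2 (-1.34) or without Las_ML replicate 1 (-1.54). In Las_SL against Las_ML it was 0.58 ± 0.52 (edgeR adjusted p = 0.76).

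The FPKM of this WRKY gene, which does not separate linear from circular RNA, was ordered like the reads of its circle. LOC111915859 had 1.03, 1.35 and 1.95 FPKM in Las_WL, 3.71, 2.78 and 2.95 in Las_ML and 2.78, 3.66 and 3.90 in Las_SL. Again all Las_WL values lay below the other 6. The mean was 3.45 ± 0.59 FPKM in Las_SL and 1.44 ± 0.47 FPKM in Las_WL (SD, n = 3 each), a difference of 0.88 ± 0.19 on the log2(FPKM + 1) scale (SE; limma adjusted p = 0.041), and with Las_WL at 1.44 and Las_ML at 3.15 ± 0.50 FPKM it was -0.78 ± 0.19 (limma adjusted p = 0.18). On this scale neither reached the log2 fold change of 1 set for a call. At levels this close to 1 FPKM, the added 1 makes these differences smaller than those of the FPKM values themselves. The gene's FPKM and its back-spliced reads come from the same libraries. Adjusted p-values of genes in Las_SL against Las_WL depended on the libraries kept. Over all genes, 767 were called with all libraries, 11 without Las_WL replicate 2 and 1084 without Las_WL replicate 1. With quantile normalization 6 were called, so an adjusted p just below 0.05 is uncertain.

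circRNA160, in the mitogen-activated protein kinase gene LOC111912183, whose product class relays signals by phosphorylation, spanned 464 bp on NW_019672233.1 (963949 to 964412, minus strand) and had 13 reads. There were 0 in all 3 Las_WL libraries, 5, 0 and 3 in Las_ML and 3, 2 and 0 in Las_SL, so each of the brighter groups also held a library without a read. Set against 3 reads over the group, the level in Las_WL was at least 2.28-fold lower than in Las_ML (edgeR adjusted p = 0.62) and at least 1.63-fold lower than in Las_SL (edgeR adjusted p = 0.58); these bounds leave out the counting error of the higher group. The first call was lost without Las_ML replicate 1 and with DESeq2, and the second in 10 of 15 alternatives, among them each of the 3 Las_WL libraries left out, Las_ML replicates 1 and 3, and Las_SL replicates 1 and 2. The gene itself had 23.7 ± 8.3 FPKM in Las_WL, 27.4 ± 4.1 FPKM in Las_ML and 26.7 ± 3.8 FPKM in Las_SL, overlapping in every comparison.

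circRNA262, in LOC111917365 with a domain of unknown function (DUF616), spanned 579 bp on NW_019672303.1 (1076465 to 1077043, minus strand) and had 38 reads. It had 6, 6 and 7 reads in Las_SL, against 2, 2 and 4 in Las_ML, and the 2 groups did not overlap; Las_WL had 3, 3 and 5. Reads per uniquely mapped read were 2.71-fold those of Las_ML in Las_SL (95% counting interval 1.13 to 7.15; log2 fold change 1.39 ± 0.69, edgeR adjusted p = 0.76). This call was lost with TMM factors, with DESeq2, and without any of the 3 Las_SL libraries or Las_ML replicates 1 or 2, where the log2 fold change was still 1.13 to 1.45. Its gene went the other way, with 10.5 ± 2.7 FPKM in Las_SL and 15.9 ± 2.6 FPKM in Las_ML, a difference of -0.57 ± 0.25 on the log2(FPKM + 1) scale that did not pass the test (limma adjusted p = 0.91).

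The remaining circles with many reads were found in all groups. circRNA228, in LOC111880154, which encodes a homolog of VPS32, a subunit of the ESCRT-III complex of endosomal sorting, spanned 409 bp on NW_019679253.1 (827304 to 827712, plus strand). It had 6, 6 and 6 reads in Las_WL, 6, 9 and 11 in Las_ML and 2, 3 and 5 in Las_SL. Las_SL was the low group here and overlapped with neither other group. Its log2 fold change in Las_SL against Las_ML was -1.17 ± 0.61 (edgeR adjusted p = 0.76), which missed the threshold with all libraries. It was called with TMM factors, with no filter, with the libraries of the comparison alone and without any of the 3 Las_WL libraries, without Las_ML replicate 1 and without Las_SL replicate 3. The VPS32 gene had 10.8 ± 0.3 FPKM in Las_WL, 15.4 ± 2.6 FPKM in Las_ML and 17.8 ± 1.6 FPKM in Las_SL. It was higher in Las_SL than in Las_WL, without overlap (difference of 0.67 ± 0.15 on the log2(FPKM + 1) scale, limma adjusted p = 0.042). As for the WRKY gene, an adjusted p just below 0.05 is uncertain, since calls in this comparison depended on the libraries kept. For the VPS32 gene, the difference between Las_SL and Las_ML did not pass the test (0.20 ± 0.15, limma adjusted p = 0.99). circRNA246 (39 reads), in LOC111877354 with no known function, had 6, 2 and 0 reads in Las_WL, 6, 6 and 4 in Las_ML and 3, 6 and 6 in Las_SL. circRNA21 (38 reads), in the DUF639 gene LOC111919244, had 4, 5 and 5 reads in Las_WL, 3, 6 and 3 in Las_ML and 2, 7 and 3 in Las_SL. Both overlapped between groups and passed no test with all libraries; without Las_WL replicate 1, whose 6 reads were the highest of its group, circRNA246 was called lower in Las_WL than in Las_ML (edgeR adjusted p = 0.71) and, by the same test, higher in Las_SL than in Las_WL (adjusted p = 0.64).

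Another 5 of the 10 most read circles were less even. circRNA258 (29 reads, LOC111887164, no known function) had 4, 3 and 0 reads in Las_WL, 10, 4 and 3 in Las_ML and 1, 1 and 3 in Las_SL, with 1 library of Las_ML above all others. circRNA427 (26 reads), in LOC111886967 for a histone-fold protein, a fold of histones and related DNA-binding subunits, had 6, 4 and 1 reads in Las_WL, 4, 1 and 3 in Las_ML and 0, 6 and 1 in Las_SL. circRNA119 (22 reads), in LOC111892154 for a NUC153-like protein, had 2, 0 and 4 reads in Las_WL, 4, 1 and 1 in Las_ML and 2, 2 and 6 in Las_SL. None of these separated the groups. circRNA219 (16 reads), in LOC111893751 for the E3 ubiquitin ligase RHF2A, which marks proteins for degradation, had 1, 1 and 1 reads in Las_SL, against 2, 4 and 4 in Las_ML (log2 fold change -1.47 ± 1.22, edgeR adjusted p = 0.76). circRNA26 (15 reads), in the oxoglutarate and iron-dependent dioxygenase gene LOC111915462, had 0 to 3 reads in every group.

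**Figure D4:**
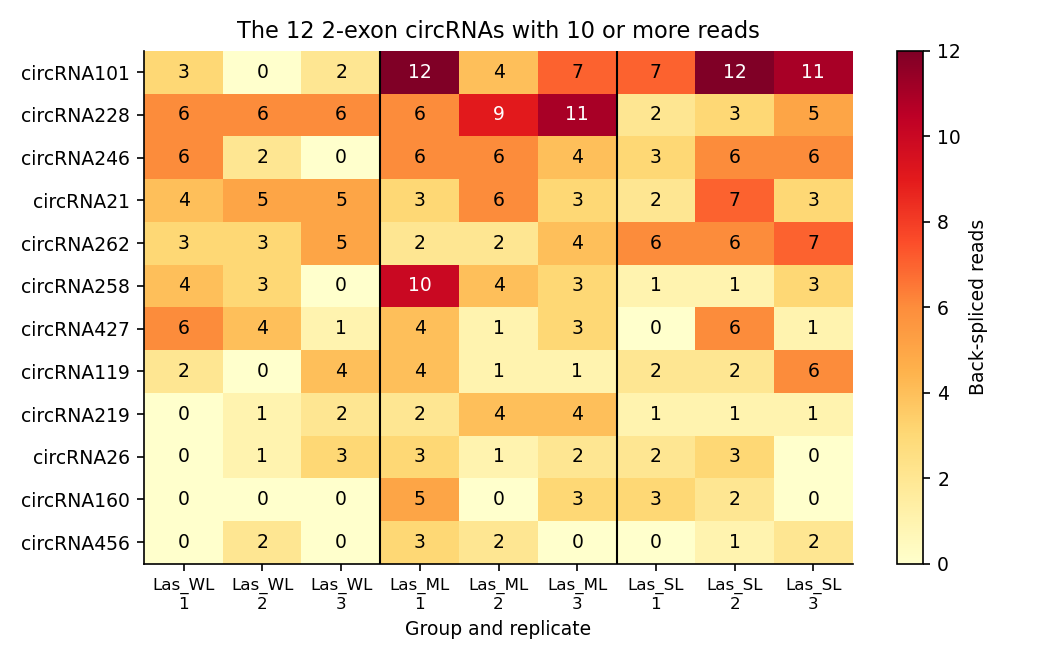
Back-spliced reads (number and colour) of the 12 circRNAs with 2 exons and 10 or more reads, in rows ordered by their total, in the 3 libraries of Las_WL, Las_ML and Las_SL in columns. circRNA101 is low in all Las_WL libraries (3, 0 and 2 reads), and circRNA228 in all Las_SL libraries (2, 3 and 5 reads).

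The parental genes covered many functions of a leaf cell. All 327 are listed with mRNA hosts in the circRNA table, and of the 326 matched by symbol in the RefSeq gene table of assembly Lsat_Salinas_v11, 315 were annotated as protein-coding and 9 as lncRNA. Sorted by words in their descriptions, 41 were metabolic enzymes (12.5%, against 8.52% of the other parental genes and 9.43% of all named genes), 18 belonged to ubiquitin and proteolysis (5.505%, 4.31% and 4.13%), 13 to protein kinases and phosphatases (3.98%, 4.71% and 2.35%) and 13 to transcription and chromatin (3.98%, 2.61% and 3.06%). Membrane traffic and cytoskeleton had 10, photosynthesis and plastid 8, RNA processing and translation 7 each, transporters 6, and DNA repair, replication and cell cycle 3. A function was not named for 68 (20.8%), and 128 fell in none of the lists. Transcription and chromatin had 103 of the 894 reads, 58 of them from circRNA101 and 26 from circRNA427, and membrane traffic 65, of which circRNA228 gave 54.

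The 8 circles of genes of photosynthesis and plastid had 10 reads in all. Of these 8 circles 6 had 1 read, close to the 64.5% over all 327, and none had a read in more than 1 library, where the share over all was 19.9%. The median FPKM of their genes was 31.5. Examples were circRNA1140 (2 reads) in LOC111914477, for the photosystem II biogenesis protein Psp29, circRNA454 (2 reads) in LOC111917006, for a chloroplastic aspartokinase, and circRNA1480 (1 read) in LOC111912861, for a Rubisco large subunit methyltransferase. The term response to light stimulus was given to 1 of the 317 parental genes with GO terms (0.315%, against 0.871% of 24785 genes with terms), chloroplast to 32 (10.1% against 11.2%) and nucleus to 105 (33.1% against 29.3%).

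Of the 13 circles of kinases and phosphatases 8 had 1 read and 4 were read in 2 or more libraries. Beside circRNA160, the most read were circRNA102 (9 reads, 371 bp) in LOC111889528 and circRNA439 (6 reads, 841 bp) in LOC111920243, both for probable serine/threonine kinases. circRNA102 had 7 reads in Las_SL against 1 in Las_ML (ratio 7.98, 95% counting interval 1.03 to 360; edgeR adjusted p = 0.76). Its 9 reads came from 4 libraries, with 1 read each in Las_ML and Las_WL. A Las_SL library thus had no read, and the groups overlapped. The counting interval leaves out the spread between libraries. In RNA processing the most read were circRNA540 (6 reads), in the pentatricopeptide repeat gene LOC111893060, a family that edits and processes organellar RNA, and circRNA1335. Transporter genes gave circRNA68 (4 reads) in LOC111917846, for a protein similar to an aluminum-activated malate transporter, and circRNA387 (3 reads) in LOC111887675, for a P-type ATPase. In translation, circRNA601 (LOC111900173, an aminoacyl-tRNA synthetase) and circRNA63 (LOC111878056, translation initiation factor 3) had 2 reads each.

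The immune receptor list, made after the values were seen, held 5 circles of RGC2 genes, a lettuce family of nucleotide-binding, leucine-rich repeat resistance genes. Their spans were long, with a median of 1769 bp against 418 bp over all 327, and 4 of the 5 were read in 2 or more libraries. circRNA878 in LOC111917404 (954 bp, 7 reads) had 0, 1 and 0 reads in Las_WL, 3, 0 and 3 in Las_ML and 0, 0 and 0 in Las_SL. circRNA646 in LOC111917394 (1769 bp) had 4 reads in 2 libraries, and circRNA32 in LOC111914798 (2052 bp) had 2 reads in 2 libraries. RGC2 copies are near-identical in parts, so reads may be split or exchanged among them, and these values are uncertain. Of the 4 tested, 0 were called in any comparison with the settings used for the counts above. circRNA878 was called lower in Las_SL than in Las_ML with TMM factors, with the libraries of the comparison alone and without Las_ML replicate 2.

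The parental genes were expressed above the typical gene but at widely different levels. The mean FPKM over 9 libraries could be assigned for 318 of the 327; 8 genes appear only in merged rows of the gene table, and 1 in several rows that could not be told apart. The median was 12.7 FPKM (0.0887 to 952), against 5.36 for the 26145 genes with a mean of at least 0.5. It was 12.2 for the genes of single-exon circles, 11.7 for those of 3 or more exons and 17.3 for 2-exon circles of genes with several circRNAs. Between 1 and 30 FPKM lay 243 of the 318 genes (76.4%). Parental level and circle reads showed no relation across circRNAs (Spearman -0.01, n = 318): the median was 10.5 FPKM for the 12 genes whose circle had 10 or more reads and 13.1 FPKM for the 209 with 1 read. The 3 most expressed were LOC111881126 (952 FPKM, an aminotransferase class V or cysteine desulfurase gene), LOC111876534 (506 FPKM, a BTB/POZ-like gene) and LOC111915538 (455 FPKM, myo-inositol-1-phosphate synthase), whose circles had 1, 3 and 1 reads.

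The FPKM minimum left 312 parental genes, which entered a limma fit of log2(FPKM + 1) for all 26145 genes. With an adjusted p below 0.05 and a log2 fold change of at least 1 in size, 7 rose and 0 fell in Las_SL against Las_WL (2.24% of 312), where 2.93% of all genes tested were called (2.73% higher and 0.199% lower), so the share was near that of all genes. In Las_SL against Las_ML and in Las_WL against Las_ML 0 of 312 were called, with 0.00382% and 0% of all genes called; with the unadjusted p in place of the adjusted one, the numbers were 1 (all genes 1.43%) and 7 (all genes 2.27%), and 17 in Las_SL against Las_WL (all genes 6.27%). The median log2 fold change of the 312 was 0.19 in Las_SL against Las_WL, as 0.18 over all genes, -0.14 and -0.13 in Las_WL against Las_ML, and 0.06 and 0.05 in Las_SL against Las_ML. The medians of the parental genes were thus close to those of the whole table. With quantile normalization, which sets the median over all genes to -0.01 in Las_SL against Las_WL, 0 of the 7 calls were left, while the log2 fold changes of the 7 genes were 0.85 to 1.51, against 1.05 to 1.78 before, and calls over all genes numbered 6, against 767.

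The 7 genes that rose in Las_SL had circles of few reads. LOC111910462 (circRNA1337), for phosphoenolpyruvate carboxylase, which fixes bicarbonate in primary metabolism, had 8.92, 11.2 and 8.52 FPKM in Las_SL, against 1.04, 2.44 and 3.04 FPKM in Las_WL (log2 fold change 1.78 ± 0.31, limma adjusted p = 0.029). LOC111900369 (circRNA600), similar to TIC32 of the chloroplast protein import machinery, had 29.0, 36.6 and 34.4 FPKM in Las_SL, against 7.11, 10.3 and 14.5 FPKM in Las_WL (1.60 ± 0.23, adjusted p = 0.025 from limma). LOC111897856 (circRNA161), of unknown function, averaged 17.4 ± 5.3 FPKM in Las_SL and 5.87 ± 1.24 FPKM in Las_WL (1.40 ± 0.24). In all 7 genes every Las_SL library lay above every Las_WL library. The genes were chosen by their call in this comparison, so this separation is no separate support for it.

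Among the other 4, LOC111915340 (circRNA202, 7 reads), for an aspartic peptidase, averaged 314 ± 45 FPKM in Las_SL and 126 ± 49 FPKM in Las_WL, and LOC111916853 (circRNA523), with a domain of unknown function, 85.9 ± 13.7 FPKM in Las_SL and 35.0 ± 13.9 FPKM in Las_WL. LOC111890002 (circRNA812), for a coactivator with a KIX domain, a fold that binds transcription factors, averaged 22.6 ± 0.9 FPKM in Las_SL and 8.30 ± 1.09 FPKM in Las_WL (log2 fold change 1.35 ± 0.15, limma adjusted p = 0.025). LOC111890607 (circRNA743), for a basic leucine zipper protein, a family of transcription factors, averaged 28.0 ± 2.9 FPKM in Las_SL and 13.0 ± 2.2 FPKM in Las_WL (1.05 ± 0.17). The fold changes varied less than the calls. With a library left out, the log2 fold change ranged from 1.49 to 1.98 for LOC111910462, from 1.37 to 1.84 for LOC111900369 and from 0.92 to 1.14 for LOC111890607. Leaving out a Las_ML library cannot change it, since this difference uses the Las_SL and Las_WL values only. The adjusted threshold moved for all genes: calls over the table numbered 0 to 11 without Las_WL replicate 2, Las_ML replicate 2 or 3, or Las_SL replicate 2 or 3, and 244 to 1084 without the other 4. Among the parental genes the number was 0 without Las_WL replicate 2, Las_ML replicate 2 or 3, or Las_SL replicate 2 or 3, leaving out Las_SL replicate 1 gave 3 and leaving out Las_ML replicate 1 gave 5, and it was 11 without Las_WL replicate 3, with all 7 among them. Without Las_WL replicate 1 it was also 11 of 313, of which 6 were higher and 5 lower in Las_SL, and 5 of the 7 were among them. Over all 25842 genes of that fit 849 were higher and 235 lower, against 715 and 52 with all libraries. The gain of lower calls was thus not particular to the parental genes. The genes lower in Las_SL in that fit were chosen after their values were seen and included nitrate reductase (LOC111893654, log2 fold change -2.40, limma adjusted p = 0.014) and a gene for the Staygreen protein of chlorophyll breakdown (LOC111901931, -1.02, adjusted p = 0.020).

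By function, the 7 called genes were spread over the lists. In Las_SL against Las_WL, 1 of 8 tested genes of photosynthesis and plastid rose (LOC111900369), 1 of 18 of ubiquitin and proteolysis (LOC111915340), 2 of 65 without a named function and 3 of 123 in none of the lists. The 3 in none of the lists were LOC111910462, LOC111890002 and LOC111890607, a carboxylase, a transcriptional coactivator and a basic leucine zipper gene whose descriptions held no word of the lists for metabolic enzymes or transcription. No gene that the words did place in those lists, or among kinases and phosphatases, was called in any comparison with all libraries. The median log2 fold change of FPKM in Las_SL against Las_WL was 0.38 for 7 translation genes, 0.37 for 9 of membrane traffic, 0.06 for the 8 of photosynthesis and -0.09 for 5 transporters, against 0.18 over all genes.

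**Figure D5:**
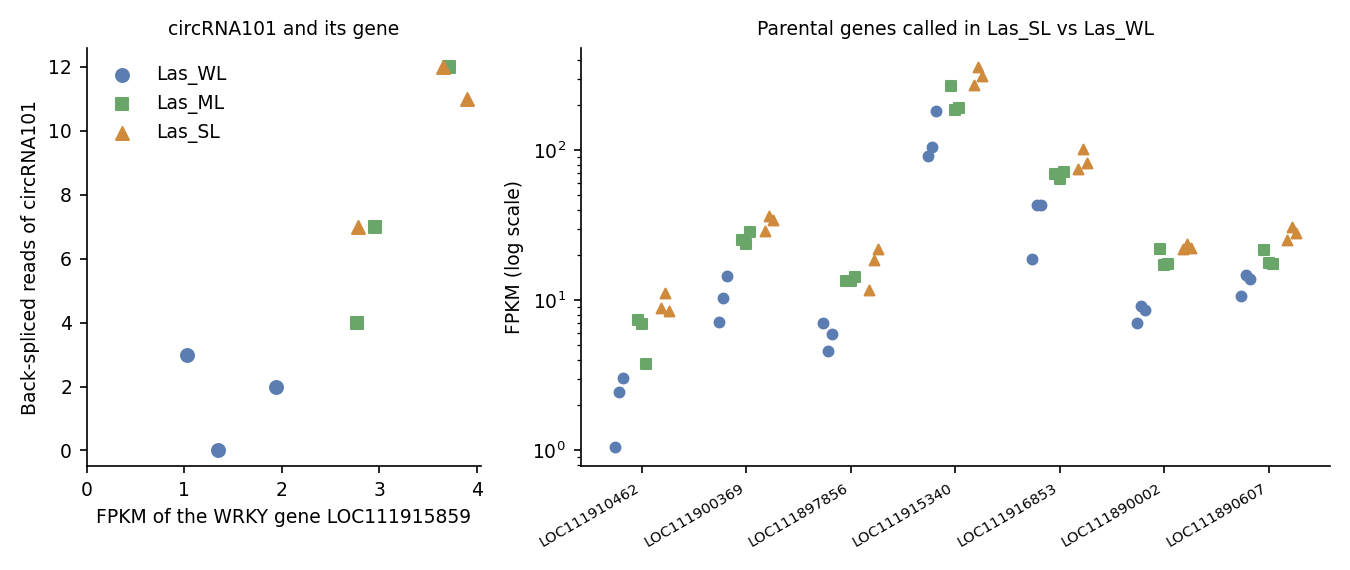
Left, back-spliced reads of circRNA101 against FPKM of its WRKY gene in the 9 libraries of Las_WL, Las_ML and Las_SL; right, FPKM (log axis) of the 7 parental genes called in Las_SL against Las_WL, with 3 libraries per group as points. The 3 Las_WL libraries have the lowest FPKM and the fewest reads on the left. On the right Las_SL lies above Las_WL for each gene, and the genes were chosen by their call in this comparison.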

How the data were processed

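The authors trimmed reads with Cutadapt, mapped them to Lsat_Salinas_v7 with Bowtie2 and TopHat2 and called circRNAs from the unmapped reads with TopHat-Fusion and CIRCexplorer. The submitters' processing notes also list HISAT2 2.0, StringTie 1.3.0 and Bowtie 0.12.2. The authors deposited raw counts of back-spliced reads, an SRPBM signal (counts scaled to candidate junction reads, used as an alternative divisor) and FPKM values of genes; other deposited columns hold positions and exon numbers. No genome of this build was used here, so no sequence is shown.

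Counts were tested with edgeR 4.0.16 in R 4.3.3 (quasi-likelihood, all 9 libraries, uniquely mapped reads as library size, circRNAs read in 2 or more libraries). For 26145 of 35342 genes, those with a mean FPKM of 0.5 or more, log2(FPKM + 1) entered limma 3.58.1 with a trended prior. Adjusted p-values are Benjamini-Hochberg over all features tested. Exact permutation tests compared library totals between groups. A group total of 0 was set to 3 reads for bounds. Simulated data served as a check for Las_SL against Las_WL, with 200 features changed 4-fold. Of 347 circRNAs, edgeR recovered 26.5% of the changed ones at the depth of the data and 92% at 100-fold depth. It called 2.72% and 4.08% of the unchanged ones. Of 26145 genes, limma recovered 48.5% of the changed and called 0.0193% of the unchanged. The simulated circRNAs were fitted with any read, without the filter on 2 or more libraries, and the shares depend on such settings. Under these settings most 4-fold changes were missed without added depth, so a missing call does not show an unchanged level. Python 3.11.15, numpy 2.4.6, pandas 2.3.3, scipy 1.17.1, matplotlib 3.10.9 and, as an alternative, DESeq2 1.42.0 were used.

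The set of circRNAs and the lists were chosen with earlier results of these data known, and the keyword lists were revised after the files had been read. Named were the 10 circles with the most reads, all called circles, up to 5 with reads in a single group and at least 2 libraries, the extreme spans and introns, the 3 most expressed genes, up to 5 called genes per comparison and up to 3 per list; circRNA228 in its alternatives, the last 2 called genes and those named without a library were added after their values were seen. Replicates are stated to be biological. The edgeR and limma p-values set a difference against the spread between libraries, estimated over all 3 groups with information shared across features. Sign permutation tests compared classes of circRNAs within the 9 libraries and do not measure the spread between circRNAs.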

Additional observations from a re-analysis of the deposited data

How the results depend on the processing

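The number of called circRNAs is small and moved with most settings. In Las_SL against Las_ML it was 1 (1 higher, 0 lower), 3 with TMM factors (0 higher, 3 lower: circRNA228, circRNA258 and circRNA878; the median log2 fold change over all circRNAs was 0.04 with TMM and 0.16 without), 0 with DESeq2, 2 without a filter, 2 with a replicate block (circRNA228 and circRNA262), 4 with the libraries of the comparison alone, and 0 to 3 with a library left out. In Las_WL against Las_ML it was 2, and 1 with DESeq2 and 0 to 4 with a library left out. In Las_SL against Las_WL it was 2, and 1 with DESeq2, with a replicate block or with the libraries of the comparison alone, and 1 to 3 with a library left out. Counting genes among exonic rows alone, which gives 337 circRNAs, left the 3 counts at 1, 2 and 2. Parental genes called in Las_SL against Las_WL numbered 7, and 0 with quantile normalization, 17 with the unadjusted p, and 0 to 11 with a library left out; in Las_SL against Las_ML and Las_WL against Las_ML they numbered 0, and 1 and 7 with the unadjusted p, with 0 for each library left out. Replicate numbers do not pair the samples: deviations of same-numbered libraries correlated from -0.52 to 0.56 for genes and from -0.01 to 0.11 for circRNAs, and with a replicate block 0 parental genes were called in Las_SL against Las_WL. The cause of these changes was not tested.

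Ratios of groups near 1 changed side. For circles detected in Las_SL against Las_ML (0.90) the ratio was 1.03 per 1000000 uniquely mapped reads and 1.09 for circles with at least 2 reads, and 0.83 to 1.03 with a library left out. For the share of back-spliced reads it was 1.00 without the most abundant circRNA and 1.04 for circles with at least 2 reads in Las_SL against Las_ML, 1.02 for circles with at least 2 reads in Las_WL against Las_ML, and 1.08 and 1.03 by these 2 settings in Las_SL against Las_WL, with 0.87 to 1.01, 0.85 to 1.07 and 0.89 to 1.13 in these comparisons with a library left out. Reads per 1000000 in Las_SL against Las_ML ranged from 0.96 to 1.11 with a library left out, in Las_WL against Las_ML from 0.62 to 0.74, and in Las_SL against Las_WL from 1.41 to 1.67 (1.39 without circRNA101, exact p = 0.2, an alternative chosen after the data were seen). Without the most read circRNA of each class, 2-exon circles had 0.19 reads per detected circle more than single-exon circles, where they had 3.74 fewer with it. With 894 reads over 327 circles, depth limits every statement on a single circle.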
